A study of Mus musculus with 16 samples.

Results

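The matrix metalloproteinases (MMPs), the ADAM and ADAMTS proteinases, the ADAMTS-like proteins and the tissue inhibitors of metalloproteinases (TIMPs) were examined in KPC1199 cells with and without a knockout of Sin3B. Members were taken by gene symbol: every Mmp, Adam, Adamts, Adamtsl or Timp1 to Timp4 gene present in both deposited count tables. The rule found 85 genes, among 55738 features in the untreated table and 56980 in the other. They are 23 MMPs, 34 ADAMs, 19 ADAMTS, 5 ADAMTS-like genes and 4 TIMPs. KPC1199 is a mouse pancreatic ductal adenocarcinoma (PDAC) line from a tumor of the KPC model (Pdx-cre, with a mutant Trp53 allele), and all groups share the alleles of that tumor. RNA-seq was performed on 16 libraries. The untreated experiment has 2 libraries of sgCtrL cells (control guide, genotype label WT) and 2 of Sin3Bsg1 cells (Sin3B knockout), neither given any agent. The IFNγ experiment has 3 libraries for each of sgCtrL without IFNγ, Sin3Bsg1 without IFNγ, sgCtrL with IFNγ and Sin3Bsg1 with IFNγ, the last 2 groups at 10 ng/ml for 24 h. The knockout cells carry a guide delivered stably by lentivirus with Cas9, and no selection of a single clone is described. The control guide is described as non-targeting. The labels do not say whether replicates came from separate cultures, so p-values measure the spread between these libraries, which may be technical.

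MMPs are zinc-dependent endopeptidases that are made as inactive proenzymes and cleave collagens, laminins, proteoglycans and many non-matrix proteins outside the cell. Most ADAMs sit in the membrane, where the proteolytic members release the outer part of growth factors, cytokines and receptors, while other members have lost the catalytic zinc site or act in sperm. ADAMTS enzymes are secreted and cut aggrecan, versican, procollagens and von Willebrand factor, ADAMTS-like proteins lack the catalytic domain, and TIMPs bind and block the active site of most of these enzymes. In PDAC these genes are known for remodeling of the dense stroma and for tumor cell invasion, and several MMP promoters carry binding sites for AP-1, the Fos and Jun family of factors.

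The 4 untreated libraries held 29683126 to 32311629 counts each, and the 12 libraries of the IFNγ experiment 18128016 to 27056813. Levels are given as CPM (a library's counts scaled to a common total by TMM), and genes are compared with each other only as TPM, which also divides by gene length. Sin3b, the targeted gene, had 87.9 and 82.8 CPM in untreated sgCtrL and 36.3 and 33.9 CPM in Sin3Bsg1, 93.2, 95.5 and 88.4 against 39.3, 38.6 and 39.4 CPM without IFNγ, and 80.3, 84.2 and 83.9 against 33.6, 37.7 and 35.5 CPM with IFNγ. It was lower in Sin3Bsg1 in all 3 genotype comparisons (log2 fold changes -1.28, -1.24 and -1.22, adjusted p at most 5.22e-10). All 8 ductal epithelial markers were expressed, and 7 of 8 leukocyte markers were at 3 counts or fewer in every library. In the untreated experiment all 8 epithelial markers were higher in Sin3Bsg1 (summed level 4740.3 and 4768 CPM in sgCtrL, 6399 and 6448 CPM in Sin3Bsg1), and the summed level of the 10 fibroblast markers was 100.4 and 101 CPM in sgCtrL and 30.8 and 33.6 CPM in Sin3Bsg1, nearly all of it from Pdgfra and Pdgfrb, with Fap, Lum and Postn at or under 3 counts. In the IFNγ experiment the epithelial sum ran from 3251 to 3278 CPM in sgCtrL and 3506 to 3625 CPM in Sin3Bsg1 without IFNγ, and from 3323 to 3873 and 4384 to 4617 CPM with it. The fibroblast sum ran from 262 to 268 and 224 to 234 CPM without IFNγ, and from 189 to 192 and 166 to 178 CPM with it. This sum joins genes of opposite direction: Pdgfra was called lower and Pdgfrb higher in Sin3Bsg1, both without and with IFNγ. In the untreated experiment both were called lower. The markers' part in the genotype effects below was not tested. In the IFNγ experiment, replicate 1 of sgCtrL with IFNγ stood apart from replicates 2 and 3 of its group (mean chi-square per gene 23.3 and 19.5, against 4.12 between replicates 2 and 3). Without this library the genotype call of Timp2 with IFNγ and the IFNγ call of Mmp12 in sgCtrL were lost, and both are given with their values below.

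Of the 85 members, 39 passed edgeR's filter on low counts among the untreated libraries and 39 among the IFNγ libraries, 37 of them in both. Adam11 and Adamts14 passed in the untreated experiment alone, and Mmp12 and Mmp27 in the IFNγ experiment alone. No test was made of the other 44, of which 29 had at most 3 counts in every library and 17 had none in any. The untested members include both gelatinases, Mmp2 and Mmp9, the collagenases Mmp1a, Mmp1b and Mmp8, the matrilysin Mmp7, the procollagen N-proteinases Adamts2 and Adamts3, the von Willebrand factor protease Adamts13, the ADAMs Adam19 and Adam28, Timp4 and 18 of the 22 genes grouped as reproductive-tract and other ADAMs. Mmp9, which degrades basement membrane collagen, reached at most 4 counts in any untreated library and 8 in any library of the IFNγ experiment, Mmp2 reached 5 and 2, and Timp4 reached 2 and 2. Expression at these depths was too low for a comparison in the main fits.

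Per length, Timp2 was the most abundant member in sgCtrL cells of the untreated experiment, at 515 ± 3.46 TPM (SD, n = 2). Adam9, a membrane sheddase, followed at 158 ± 0.885 TPM. Timp3 and Mmp14, the membrane-type MMP that activates pro-MMP2, did not differ beyond their spread (139.6 ± 0.772 and 139 ± 0.836 TPM), and Adam10, Mmp13 and Adam15 came next at 94.2 ± 1.75, 72.5 ± 0.0943 and 61.1 ± 1.24 TPM. In sgCtrL cells without IFNγ, in contrast, the collagenase Mmp13 ranked first at 727 ± 12.3 TPM (SD, n = 3), above Timp2 at 407 ± 13.6 and Adam9 at 180.1 ± 4.46 TPM. The tables of the 2 experiments were scaled apart, so a difference in level and a difference between the experiments as a whole cannot be told apart. Side by side, the sgCtrL libraries had 94.1 to 94.6 CPM of Mmp13 in the untreated experiment and 880.2 to 897 CPM without IFNγ. Adamts15 went the other way, at 77.7 to 83.4 CPM against 9.75 to 11.7 CPM, and so did Timp3, at 319 to 322 CPM against 98.1 to 99.1 CPM.

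10 of the MMP genes lie side by side on mouse chromosome 9, in the order Mmp13, Mmp12, Mmp1b, Mmp3, Mmp1a, Mmp10, Mmp8, Mmp27, Mmp20 and Mmp7 (GRCm39 chr9:7272514-7699587), and 5 of them passed the filter. The promoters of its 3 members called in both genotypes with IFNγ are shown because they hold the same 7-base AP-1 motif near the start site. RefSeq promoter sequences (build GRCm38.p6) were matched by symbol to 54 of the 85 members, 26 of them tested. TGANTCA was searched on both strands of the 250 bases before the start site. It was found in 8 of the 10 cluster genes, in 4 of the 44 other members with a sequence, and in 6.75% of all 32851 promoters. TATAAA, searched on the gene's strand, was found in 7 of the 10 cluster genes and in 7.59% of all promoters. The other motif searched, TTCNNNGAA (the GAS motif), reads the same on both strands. It was found in 4 of the 54 members with a sequence, none of the 26 tested among them, and in 7.02% of all promoters. The 150 bases before each start site were placed in GRCm39 by exact match, all on the plus strand of chromosome 9, 5′ to 3′, with the motif in capitals.
Mmp13 (chr9:7272364-7272513): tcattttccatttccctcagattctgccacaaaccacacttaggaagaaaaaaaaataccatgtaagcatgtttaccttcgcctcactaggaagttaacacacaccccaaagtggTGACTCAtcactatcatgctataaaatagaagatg
Mmp3 (chr9:7445672-7445821): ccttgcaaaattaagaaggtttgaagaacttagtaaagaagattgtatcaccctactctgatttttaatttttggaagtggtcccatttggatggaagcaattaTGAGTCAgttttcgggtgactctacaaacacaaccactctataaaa
Mmp10 (chr9:7502193-7502342): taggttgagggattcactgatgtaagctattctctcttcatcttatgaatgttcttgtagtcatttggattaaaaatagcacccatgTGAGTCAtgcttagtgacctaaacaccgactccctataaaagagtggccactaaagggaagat
The last base of the motif is 29 bases before the start in Mmp13, 40 in Mmp3 and 57 in Mmp10. TATAAA ends 11 bases before the start in Mmp13, 2 in Mmp3 and 24 in Mmp10, and the motif does not overlap it in any of the 3. The Mmp10 window ends at 7502342, while the gene's position in GRCm39 starts at 7502353. Distances are to the RefSeq starts, and how well these mark the starts used in these cells was not tested. A match describes the letters in this window, and binding was not measured here.

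Loss of Sin3B was accompanied by lower transcript levels for most of the members called. In the untreated experiment 23 of the 39 tested members passed the threshold of 0.05 on edgeR's adjusted p, 4 higher and 19 lower in Sin3Bsg1, where 30.7% of all genes tested were called, 15% higher and 15.7% lower. The median log2 fold change was -0.33 over the tested members and 0.00331 over all genes tested. Without IFNγ 13 of 39 were called, 3 higher and 10 lower (all genes 17.2%, 7.89% higher and 9.33% lower), with medians of -0.14 and -0.00904. With IFNγ 15 of 39 were called, 4 higher and 11 lower (all genes 16.5%, 8.62% higher and 7.9% lower), with medians of -0.06 and 0.00362. Mmp3, Mmp11, Mmp13, Mmp19, Adamts5, Adamts9, Adamtsl3 and Timp3 were lower in all 3 comparisons, and Mmp28 and Adamtsl5 were higher in all 3. Adam8 was the member called in opposite directions. 11 of the 37 members tested in every comparison were called in none: Adam10, Adam18, Adam1a, Adam22, Adam33, Adam4, Adam5, Adamts17, Adamts6, Adamts7 and Mmp10. Of the members tested in 1 experiment, Adam11 (log2 fold change -0.67, adjusted p = 0.544) and Adamts14 (log2 fold change -1.15, adjusted p = 0.0897) were not called between genotypes, and neither were Mmp12 and Mmp27 without IFNγ (0.52, adjusted p = 0.781 and -0.46, adjusted p = 0.603) or with it (-0.45, adjusted p = 0.677 and 0.57, adjusted p = 0.547).

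**Figure D1:**
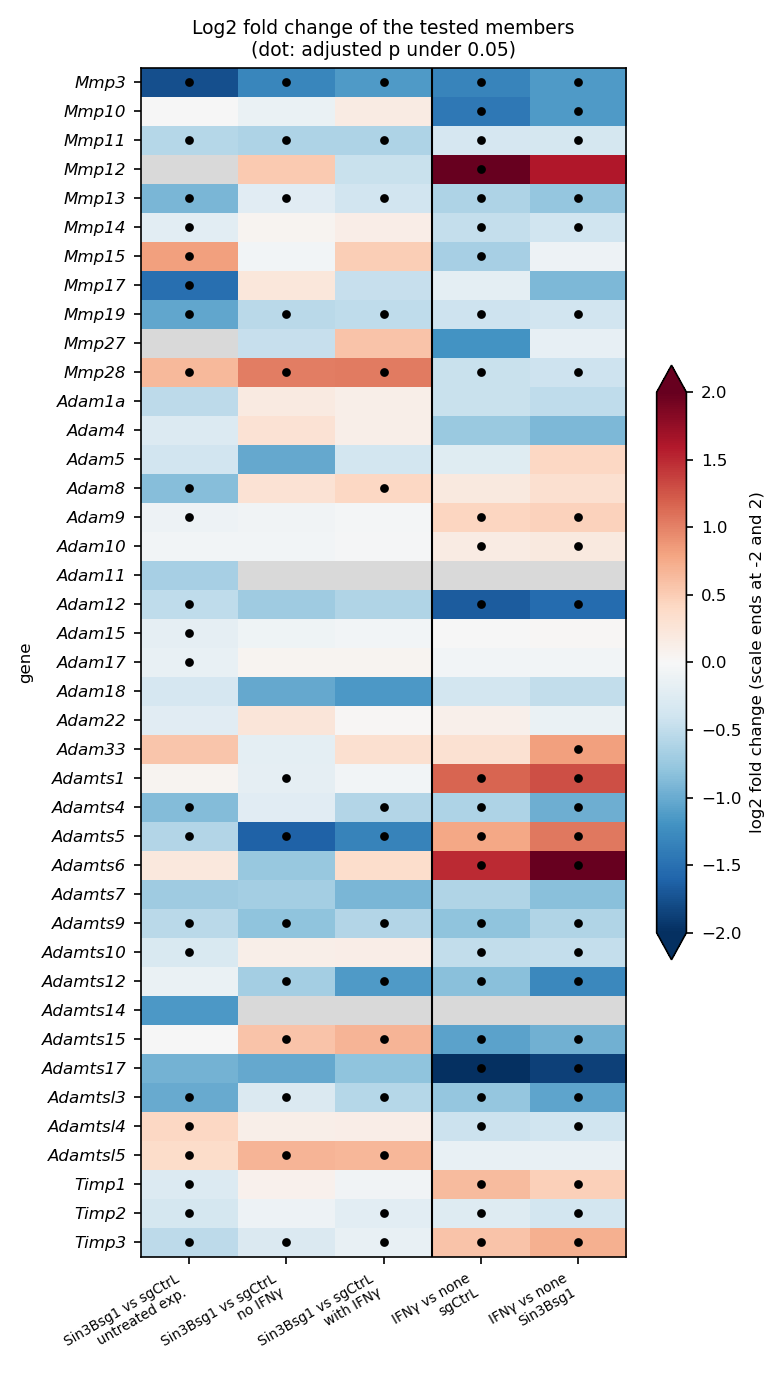
Log2 fold change of each tested member (rows) in the 3 genotype comparisons (Sin3Bsg1 against sgCtrL) and the 2 IFNγ comparisons (columns), by color from -2 to 2, with a black dot where edgeR's adjusted p was under 0.05 and grey where the gene was not tested. Mmp3 and Adamts5 are blue across the genotype columns and Mmp28 is red, while Adamts1 and Adamts6 are red in both IFNγ columns.

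Among the MMPs, 6 of 9 tested members were lower and 2 higher in Sin3Bsg1 of the untreated experiment, and 4 of 11 were lower and 1 higher both without and with IFNγ. The shares of all genes tested that were called were 30.7%, 17.2% and 16.5%. Mmp3 (stromelysin-1, chr9:7445822-7455975, plus strand in GRCm39), which cleaves proteoglycans and activates other pro-MMPs, had 9.4 and 10.4 CPM in the untreated sgCtrL libraries and 2.81 and 3.02 CPM in Sin3Bsg1. Every Sin3Bsg1 library was below every sgCtrL library (log2 fold change -1.76, SE 0.14, adjusted p = 2.16e-07, edgeR). Without IFNγ its levels were 23.4, 17.5 and 19.7 CPM in sgCtrL and 7.76, 9.39 and 7.22 CPM in Sin3Bsg1, and with IFNγ 9.99, 7.25 and 7.2 and 3.67, 3.99 and 3.39 CPM. Neither pair of groups overlapped, and the log2 fold changes were -1.31 (adjusted p = 7.46e-06) and -1.13 (adjusted p = 1.45e-04). Mmp13 (collagenase-3, chr9:7272514-7283331, plus strand), which cuts fibrillar collagen, had 94.1 and 94.6 CPM in sgCtrL and 49.8 and 49.9 CPM in Sin3Bsg1 of the untreated experiment (log2 fold change -0.92, SE 0.04, adjusted p = 1.57e-10). In the IFNγ experiment its sgCtrL libraries were at 884, 880.2 and 897 CPM and its Sin3Bsg1 libraries at 731, 759.9 and 786 CPM without IFNγ. The groups stayed apart, with a smaller log2 fold change of -0.22 (adjusted p = 8.08e-04). With IFNγ they were at 591, 573 and 574 and 434, 444 and 452 CPM, a log2 fold change of -0.38 (adjusted p = 5.66e-06). Mmp10, a stromelysin of the same cluster, was called in no genotype comparison (log2 fold changes -0.02, -0.14 and 0.16), at 0.867 and 0.912 CPM in untreated sgCtrL and 1.11 and 0.643 CPM in Sin3Bsg1, and 2.64, 3.17 and 3.05 and 2.21, 3.04 and 2.84 CPM without IFNγ.

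Outside the cluster, Mmp19, an MMP with a broad basement membrane substrate range, had 29.1 and 27.7 CPM in untreated sgCtrL and 13 and 14.6 CPM in Sin3Bsg1 (log2 fold change -1.05, SE 0.08, adjusted p = 1.46e-07). Without IFNγ it had 35.5, 30.2 and 33.6 CPM against 22.8, 22.6 and 22.9 CPM, and with IFNγ 26.9, 22.4 and 24.9 against 17.7, 15.8 and 18.8 CPM. All 3 pairs of groups were separate, with log2 fold changes of -0.54 and -0.50 in the IFNγ experiment (adjusted p = 2.27e-04 and 5.80e-04). Mmp11 (stromelysin-3), a furin-activated enzyme best known from tumor stroma, was lower by almost the same log2 fold change in each comparison: -0.56, -0.62 and -0.62 (adjusted p = 2.37e-05, 1.45e-04 and 1.87e-04). It had 27.6 and 27.1 CPM in untreated sgCtrL against 18.8 and 18.2 CPM in Sin3Bsg1. Without IFNγ it had 16.5, 18.6 and 17 against 11.8, 11.6 and 10.7 CPM and with IFNγ 12.2, 15.1 and 14 against 9.1, 9.16 and 8.58 CPM. Mmp28 (epilysin), an MMP of epithelia, ran the other way. Its levels were 27.3 and 25.5 CPM in untreated sgCtrL and 39.8 and 42.6 CPM in Sin3Bsg1 (log2 fold change 0.64, SE 0.06, adjusted p = 1.55e-06). Without IFNγ they were 13.4, 13.6 and 12.8 and 26.4, 26.5 and 27.9 CPM, and with IFNγ 8.94, 10.4 and 9.9 and 20.8, 19.6 and 19.9 CPM. Each Sin3Bsg1 library exceeded each sgCtrL library of its condition, with log2 fold changes of 1.02 (adjusted p = 5.74e-08) and 1.04 (adjusted p = 7.50e-08).

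**Figure D2:**
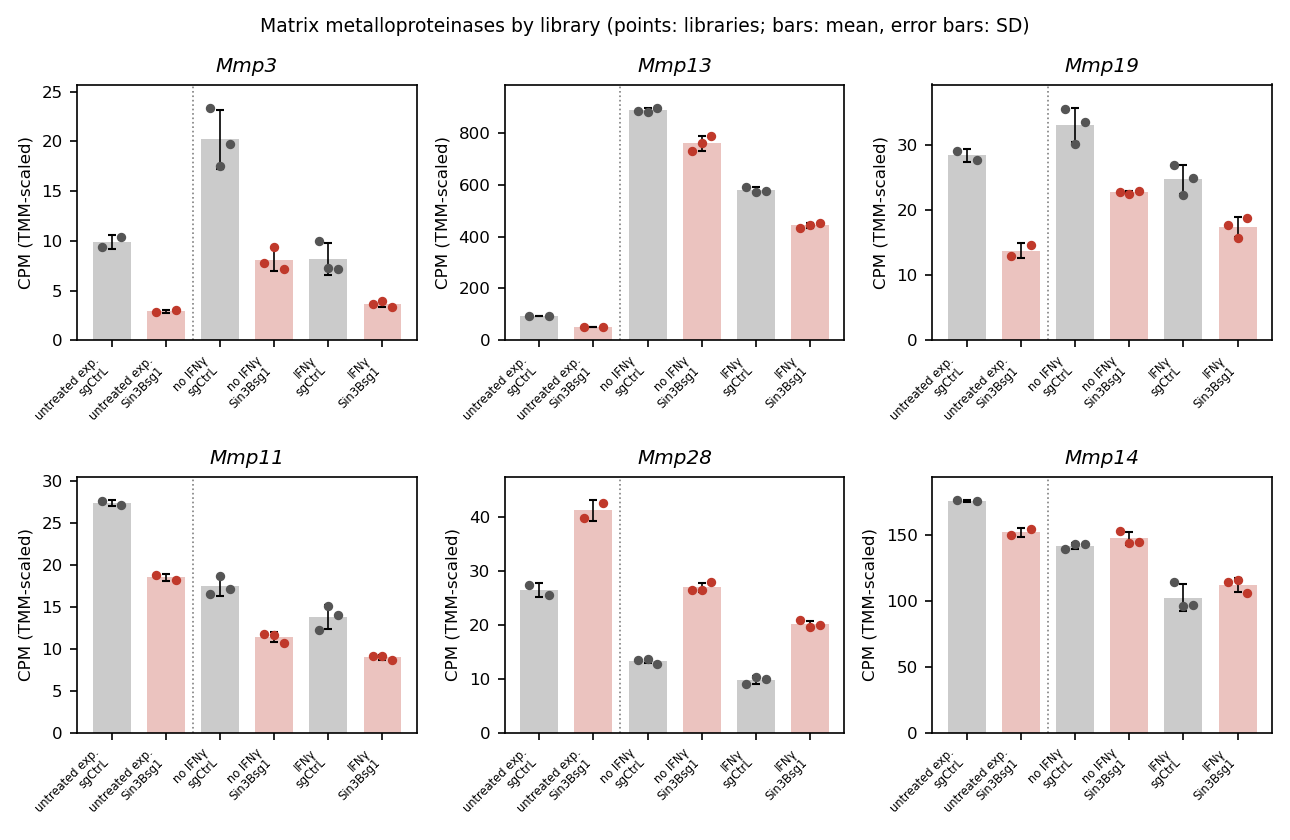
CPM after TMM scaling (vertical axis, from 0) of 6 MMP genes in each library (points) with the group mean (bar) and SD (error bar), the untreated experiment left of the dotted line and the IFNγ experiment right of it, sgCtrL grey and Sin3Bsg1 red. The Sin3Bsg1 libraries of Mmp3, Mmp13, Mmp19 and Mmp11 lie below the sgCtrL libraries in each pair of groups, those of Mmp28 lie above, and Mmp14 is lower in Sin3Bsg1 in the untreated pair alone.

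The membrane-type MMPs did not move together. Mmp14 (MT1-MMP) had 176 and 175 CPM in untreated sgCtrL and 149.6 and 154 CPM in Sin3Bsg1, a small and tightly measured fall (log2 fold change -0.21, SE 0.03, adjusted p = 4.53e-05). In the IFNγ experiment it was not called between genotypes (139, 143 and 143 against 153, 144 and 145 CPM without IFNγ, log2 fold change 0.06, adjusted p = 0.602). Mmp15 (MT2-MMP) was higher in untreated Sin3Bsg1, at 6.89 and 8.75 CPM against 3.53 and 5.27 CPM (log2 fold change 0.83, SE 0.18, adjusted p = 0.00275), and was not called without IFNγ (log2 fold change -0.06, adjusted p = 0.896) or with it (log2 fold change 0.50, adjusted p = 0.116). Mmp17, a GPI-anchored member, had 36 and 23 counts in untreated sgCtrL and 9 and 13 counts in Sin3Bsg1 (log2 fold change -1.50, SE 0.47, adjusted p = 0.0242). This call rested on low counts: it was lost in DESeq2 (adjusted p = 0.0746) and without replicate 1 of either untreated group (adjusted p from 0.149 to 0.267).

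In the untreated experiment 5 of 13 tested ADAMs were lower in Sin3Bsg1 and none was higher, without IFNγ none of 12 was called by edgeR or DESeq2 (3 of 12 at an unadjusted p under 0.05), and with IFNγ 1 was higher. Over all genes tested, edgeR called 30.7%, 17.2% and 16.5% in these comparisons. Adam10 and Adam17, the main sheddases of Notch, EGF receptor ligands and TNF, differed little. Adam17 had 125 and 123 CPM in untreated sgCtrL and 114 and 110.2 CPM in Sin3Bsg1 (log2 fold change -0.14, SE 0.03, adjusted p = 0.00452), and in the IFNγ experiment 137, 136 and 139.7 against 144, 144 and 141 CPM without IFNγ (log2 fold change 0.05, adjusted p = 0.448) and 138, 128 and 131 against 139, 134 and 138 CPM with it (log2 fold change 0.05, adjusted p = 0.452). Adam10 was called in none of the 3 (log2 fold changes -0.06, -0.05 and -0.02), with 213 and 208 CPM in untreated sgCtrL and 202 and 202 CPM in Sin3Bsg1. The sheddase Adam9 (log2 fold change -0.10, adjusted p = 0.00407) and Adam15 (log2 fold change -0.18, adjusted p = 6.22e-04), an integrin-binding ADAM, were lower by small log2 fold changes in the untreated experiment, and neither was called in the IFNγ experiment.

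Adam8, a sheddase of leukocytes that pancreatic tumors also express, had the largest log2 fold change of the ADAMs called between genotypes. In the untreated experiment it had 5.2 and 5.24 CPM in sgCtrL and 3.0 and 2.8 CPM in Sin3Bsg1, with the knockout libraries below (log2 fold change -0.85, SE 0.17, adjusted p = 0.00152). In the IFNγ experiment it had 5.6, 6.17 and 5.4 CPM in sgCtrL against 8.03, 7.13 and 5.8 CPM in Sin3Bsg1 without IFNγ, where the groups overlapped and the test was not passed (log2 fold change 0.29, adjusted p = 0.173), and 6.66, 6.3 and 6.84 against 9.6, 7.75 and 8.97 CPM with IFNγ, where they did not overlap (log2 fold change 0.41, adjusted p = 0.0413). The last call was lost in 7 of the 12 fits that left out 1 library (adjusted p from 0.0505 to 0.153), in DESeq2 and in the fit on the 6 libraries compared (adjusted p from 0.0646 to 0.0729). Adam12 (meltrin alpha), an ADAM of mesenchymal and tumor cells that cuts insulin-like growth factor binding proteins, had 6.77 and 6.25 CPM in untreated sgCtrL and 4.98 and 4.15 CPM in Sin3Bsg1 (log2 fold change -0.51, SE 0.15, adjusted p = 0.0184), a call lost without replicate 1 of sgCtrL or replicate 2 of Sin3Bsg1 (adjusted p from 0.0895 to 0.131) and in DESeq2 (adjusted p = 0.0553). Without IFNγ the groups were also apart, at 3.39, 3.38 and 2.99 and 1.83, 2.61 and 1.55 CPM, yet the test was not passed (log2 fold change -0.71, adjusted p = 0.0669). The 4 tested genes of the reproductive-tract group (Adam1a, Adam4, Adam5 and Adam18) were called in none of the 5 genotype or IFNγ comparisons by edgeR or DESeq2, with 1 or 2 of 4 at an unadjusted p under 0.05 in each.

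Of the ADAMTS genes, 4 of 11 tested were lower and none higher in Sin3Bsg1 of the untreated experiment, and 4 of 10 were lower and 1 higher both without and with IFNγ. Beside these stand 30.7%, 17.2% and 16.5% of all genes tested. The proteoglycan-cleaving members gave most of the ADAMTS calls. Adamts5 (aggrecanase-2, chr16:85653061-85698716, minus strand), which cleaves aggrecan and versican, had 8.4 and 8.52 CPM in untreated sgCtrL and 5.5 and 5.79 CPM in Sin3Bsg1 (log2 fold change -0.58, SE 0.13, adjusted p = 0.00251). The gap was wider in the IFNγ experiment, with 8.89, 14.2 and 10.7 CPM in sgCtrL against 3.46, 3.74 and 3.95 CPM in Sin3Bsg1 without IFNγ, and 18, 21.4 and 18.8 against 7.89, 7.54 and 7.77 CPM with IFNγ. Log2 fold changes there were -1.61 (adjusted p = 2.05e-06) and -1.33 (adjusted p = 4.20e-06), with no overlap of groups. Adamts9, a versican-cleaving enzyme of early development and endothelium, had 134 and 132 CPM in untreated sgCtrL and 91 and 93 CPM in Sin3Bsg1 (log2 fold change -0.53, SE 0.03, adjusted p = 9.28e-09). Without IFNγ it had 109, 107 and 109.8 against 63.2, 59.99 and 64.3 CPM (log2 fold change -0.80, adjusted p = 5.16e-07), and with IFNγ 55.2, 64.1 and 66.2 against 44.9, 39.3 and 39.5 CPM (log2 fold change -0.59, adjusted p = 2.02e-05). Its Sin3Bsg1 libraries were the lower ones in every pair.

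Adamts4 (aggrecanase-1) had 5.07 and 3.75 CPM in untreated sgCtrL and 2.6 and 2.25 CPM in Sin3Bsg1 (log2 fold change -0.86, adjusted p = 0.00575), which was not past the threshold without replicate 1 of sgCtrL (adjusted p = 0.0760). With IFNγ its levels were 4.82, 4.91 and 5.58 against 2.92, 3.63 and 3.65 CPM (log2 fold change -0.58, adjusted p = 0.0218), a call lost without replicate 1 of Sin3Bsg1 or replicate 3 of sgCtrL (adjusted p from 0.0767 to 0.0900) and in the fit on the 6 libraries compared (adjusted p = 0.0530). Without IFNγ it was not called, at 6.57, 7.38 and 9.62 CPM in sgCtrL and 6.05, 6.87 and 7.3 CPM in Sin3Bsg1 (log2 fold change -0.22, adjusted p = 0.362). Adamts15, a versican-cleaving enzyme, was the member of the group that ran the other way, and only in the IFNγ experiment was it called: 9.75, 9.84 and 11.7 CPM in sgCtrL against 14.6, 16.6 and 15.4 CPM in Sin3Bsg1 without IFNγ (log2 fold change 0.58, adjusted p = 0.00109), and 4.52, 5.74 and 4.59 against 8.14, 7.87 and 7.81 CPM with it (log2 fold change 0.67, adjusted p = 8.63e-04). In the untreated experiment its groups overlapped, at 77.7 and 83.4 and 79.96 and 80.8 CPM (log2 fold change -0.00369, adjusted p = 0.962). Adamts1, which cleaves versican and can restrain vessel growth, was slightly lower in Sin3Bsg1 without IFNγ (96.7, 98.8 and 98.7 against 87.7, 85.9 and 85.1 CPM, log2 fold change -0.19, adjusted p = 0.00575) and was not called in the untreated experiment (log2 fold change 0.05, adjusted p = 0.417) or with IFNγ (log2 fold change -0.06, adjusted p = 0.352). Adamts12, a protease of cartilage oligomeric matrix protein, had 5.66, 4.3 and 5.56 CPM in sgCtrL and 3.04, 3.43 and 3.18 CPM in Sin3Bsg1 without IFNγ (log2 fold change -0.68, adjusted p = 0.0218). That call was lost without replicate 1 or replicate 3 of either of these groups (adjusted p from 0.0653 to 0.0906), while the one with IFNγ, at 3.13, 2.45 and 3.06 against 1.5, 0.928 and 1.5 CPM, held in every such fit (log2 fold change -1.13, adjusted p = 0.00188). Adamts10, a microfibril-associated member, was lower only in the untreated comparison (log2 fold change -0.31, adjusted p = 8.92e-04).

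**Figure D3:**
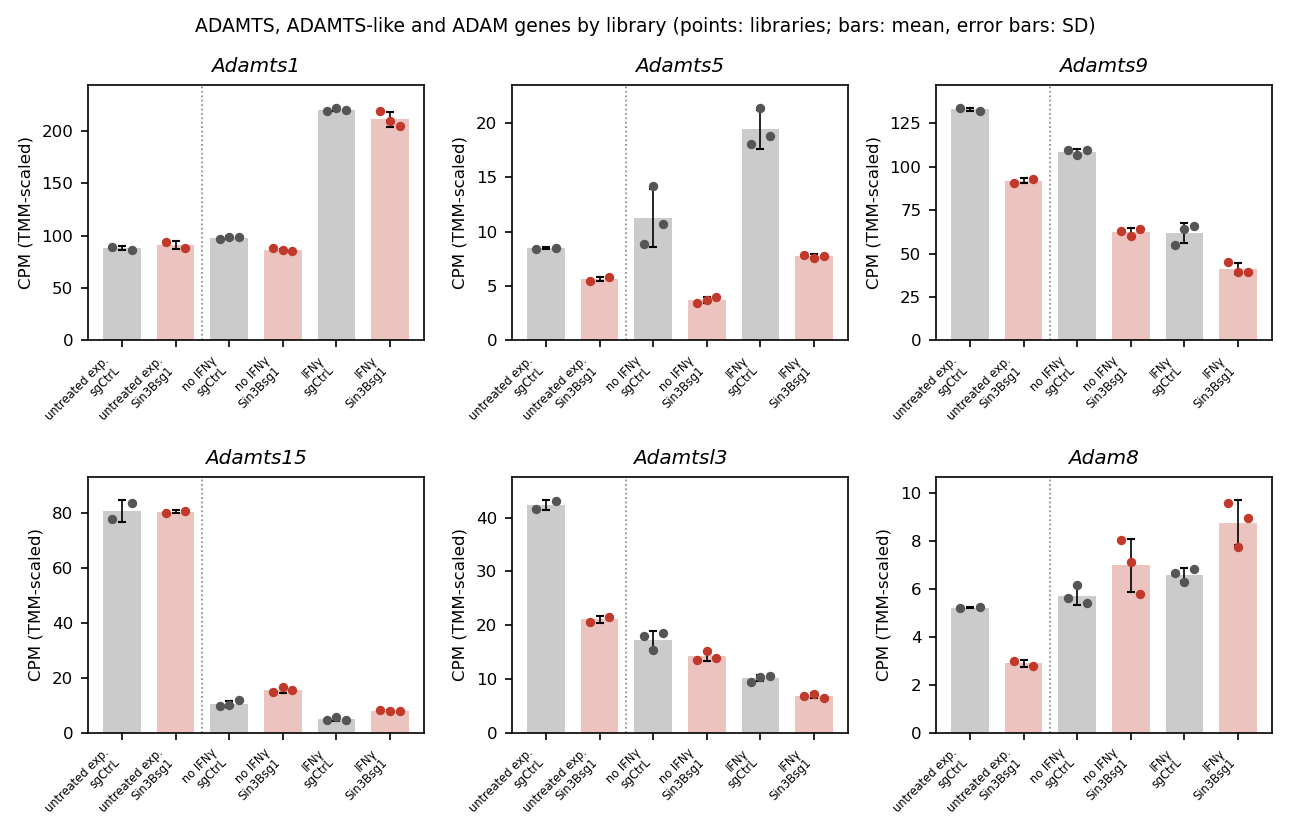
CPM after TMM scaling (vertical axis, from 0) of 4 ADAMTS genes, Adamtsl3 and Adam8 in each library (points) with the group mean (bar) and SD (error bar), laid out by experiment, IFNγ and genotype, sgCtrL grey and Sin3Bsg1 red. Adamts5 and Adamts9 are lower in Sin3Bsg1 in every pair of groups, Adamts1 is higher with IFNγ in both genotypes, and Adam8 is lower in Sin3Bsg1 in the untreated experiment and not in the IFNγ experiment.

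The ADAMTS-like genes, which encode matrix proteins without a catalytic domain, went both ways. Adamtsl3 (punctin-2) had 41.7 and 43 CPM in untreated sgCtrL and 20.6 and 21.6 CPM in Sin3Bsg1 (log2 fold change -1.01, SE 0.06, adjusted p = 9.50e-09). With IFNγ it had 9.44, 10.3 and 10.5 against 6.85, 7.26 and 6.35 CPM (log2 fold change -0.57, adjusted p = 9.72e-04), and without IFNγ 18.1, 15.3 and 18.5 against 13.6, 15.2 and 13.8 CPM. The last comparison was borderline (log2 fold change -0.28, adjusted p = 0.0448) and was lost in 9 of the 12 fits without 1 library (adjusted p from 0.0514 to 0.173) and under 6 other settings. Adamtsl5, which binds fibrillin and heparin, had 40.2 and 40.6 CPM in untreated sgCtrL and 51.7 and 52.2 CPM in Sin3Bsg1 (log2 fold change 0.36, adjusted p = 3.13e-05). Without IFNγ it had 13.5, 14.7 and 13.3 against 23.3, 21.7 and 21.1 CPM (log2 fold change 0.67, adjusted p = 1.11e-04) and with IFNγ 14.2, 12 and 11.4 against 22.4, 18.6 and 18.7 CPM (log2 fold change 0.67, adjusted p = 1.30e-04), so the knockout libraries were higher in each pair. Adamtsl4, a fibrillin-binding protein of the eye's zonule, was called higher in the untreated experiment alone (74.1 and 71.7 against 94.6 and 101 CPM, log2 fold change 0.42, adjusted p = 1.31e-06). Its log2 fold changes were 0.12 without IFNγ and 0.14 with it, where the unadjusted p was under 0.05 in edgeR and the adjusted p was not.

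The inhibitors were lower too: all 3 tested TIMPs fell in Sin3Bsg1 of the untreated experiment. Timp2, which inhibits MMPs and also assists MMP14 in activating pro-MMP2, had 923 and 935 CPM in sgCtrL and 730.5 and 719 CPM in Sin3Bsg1 (log2 fold change -0.36, SE 0.02, adjusted p = 9.18e-10). Timp3 (chr10:86136236-86185371, plus strand), the matrix-bound inhibitor that also blocks ADAM17 and aggrecanases, had 319 and 322 CPM and 218 and 227 CPM (log2 fold change -0.53, SE 0.03, adjusted p = 7.04e-10). Timp1, a secreted inhibitor with a growth factor-like activity, had 21 and 21 CPM against 17.6 and 17 CPM (log2 fold change -0.28, adjusted p = 0.0126), and its call was lost without either sgCtrL library (adjusted p from 0.0568 to 0.0586). No pair of groups overlapped. Of the TIMPs, Timp3 alone was called without IFNγ, at 98.1, 99.1 and 98.7 CPM in sgCtrL and 77.3, 82.2 and 81.9 CPM in Sin3Bsg1 (log2 fold change -0.29, adjusted p = 1.62e-04). With IFNγ it was at 149, 145 and 147 and 136, 132 and 128 CPM (log2 fold change -0.15, adjusted p = 0.0188), which was lost without replicate 2 or replicate 3 of Sin3Bsg1 (adjusted p from 0.0636 to 0.0703), and with no filter on low counts or in the fit on the 6 libraries compared (adjusted p from 0.0846 to 0.0869). Timp2 with IFNγ had 646, 559 and 514 CPM in sgCtrL and 507, 496 and 486 CPM in Sin3Bsg1 (log2 fold change -0.21, adjusted p = 0.0388). This call was lost in 9 of the 12 fits without 1 library (adjusted p from 0.0522 to 0.123) and in the fit on the 6 libraries compared (adjusted p = 0.127). Without replicate 1 of sgCtrL with IFNγ, the library that stood apart, the Timp2 log2 fold change was -0.10 in place of -0.21. Timp1 was not called without IFNγ (log2 fold change 0.09, adjusted p = 0.635) or with it (log2 fold change -0.06, adjusted p = 0.739). Exons of Timp2 overlap those of Cep295nl on the same strand, and exons of Timp3 those of Syn3 on the other strand, and whether the counting used strand is not given in the sources used here.

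**Figure D4:**
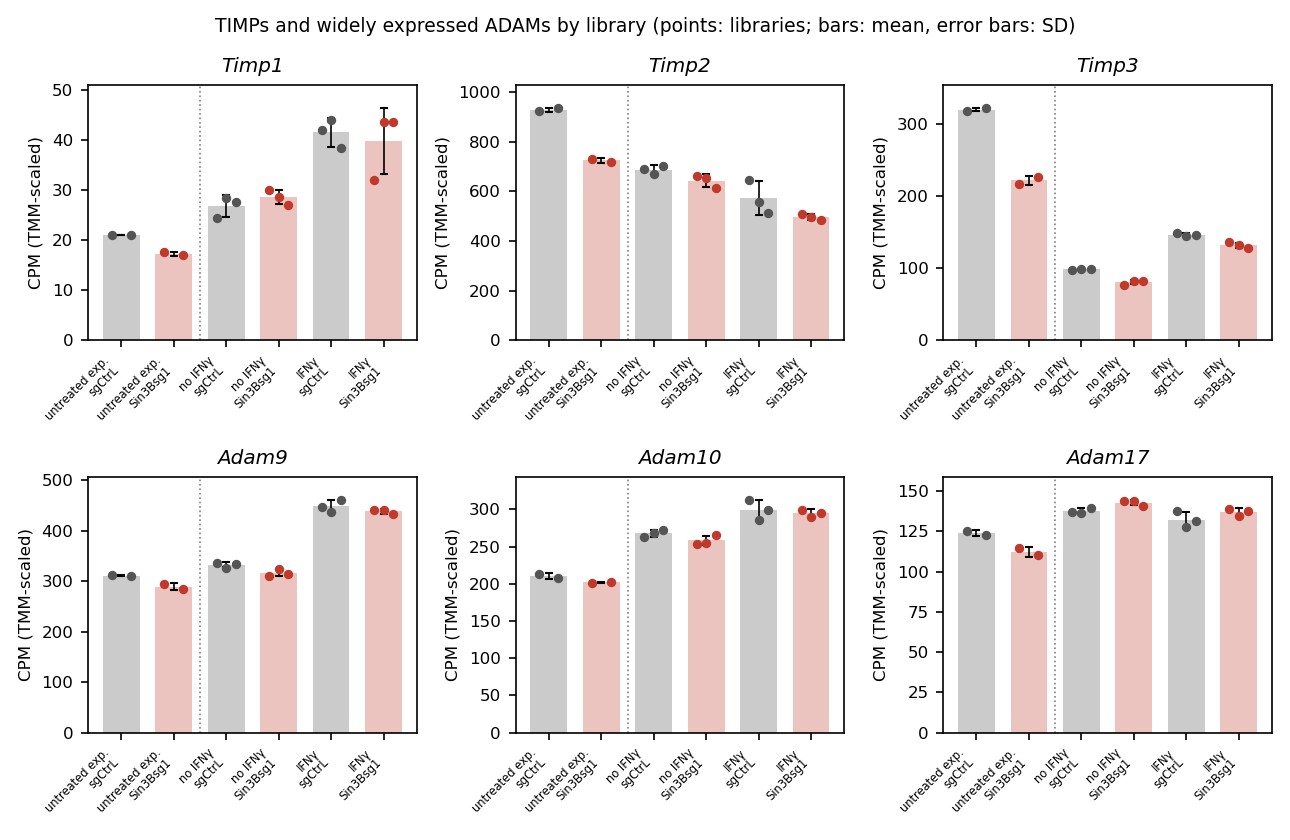
CPM after TMM scaling (vertical axis, from 0) of Timp1, Timp2, Timp3, Adam9, Adam10 and Adam17 in each library (points) with the group mean (bar) and SD (error bar), sgCtrL grey and Sin3Bsg1 red. All 3 TIMPs are lower in Sin3Bsg1 of the untreated experiment, Timp1 and Timp3 are higher with IFNγ in both genotypes, and the ADAM panels differ little between genotypes.

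IFNγ moved about as many members in one genotype as in the other. In sgCtrL 26 of 39 tested members were called, 8 higher and 18 lower with IFNγ, where 30.2% of all genes tested were called (15.7% higher and 14.5% lower). In Sin3Bsg1 25 of 39 were called, 8 higher and 17 lower (all genes 28.4%, 16.1% higher and 12.3% lower). The medians over the members were -0.42 and -0.39, against -0.00062 and 0.00519 over all genes tested. Over all genes the split depends on the scaling: with upper-quartile scaling 1814 genes were higher and 2765 lower in sgCtrL, in place of 2343 and 2164, and 1675 were higher and 2794 lower in Sin3Bsg1, in place of 2396 and 1836. The members were split 7 higher and 18 lower in sgCtrL and 8 higher and 21 lower in Sin3Bsg1 under that scaling. In both genotypes 17 members were lower with IFNγ and 7 were higher.

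Most tested MMPs fell with IFNγ. 8 of 11 tested MMPs were lower in sgCtrL and 7 of 11 in Sin3Bsg1, among them Mmp3, Mmp10, Mmp11, Mmp13, Mmp14, Mmp19 and Mmp28 in both. Of all genes tested 14.5% and 12.3% were lower. Mmp3 changed by -1.31 on the log2 scale in sgCtrL and -1.14 in Sin3Bsg1 (adjusted p = 2.89e-06 and 5.92e-05). Mmp10, from 2.64, 3.17 and 3.05 CPM to 1.59, 1.13 and 0.585 CPM in sgCtrL, changed by -1.43 there and by -1.14 in Sin3Bsg1, where its levels with IFNγ were 1.42, 1.13 and 1.12 CPM (adjusted p = 0.00135 and 0.00606). Mmp13 changed by -0.62 and -0.78 (adjusted p = 5.64e-09 and 2.66e-10), a fall in both. Mmp14 went from 139, 143 and 143 to 114, 95.9 and 96.8 CPM in sgCtrL and from 153, 144 and 145 to 115, 115 and 106 CPM in Sin3Bsg1, log2 fold changes of -0.47 and -0.40 (adjusted p = 2.72e-05 and 1.38e-04). Mmp28 also fell in both, with log2 fold changes of -0.44 and -0.42, and was still higher in Sin3Bsg1. Mmp11 was lower by the same log2 fold change in both genotypes (-0.34), the call in sgCtrL being lost without replicate 2 of sgCtrL without IFNγ (adjusted p = 0.0564). Mmp15 had 4.31, 3.84 and 4.76 CPM in sgCtrL without IFNγ and 3.58, 2.3 and 2.34 CPM with it, and 3.96, 4.87 and 3.57 and 3.92, 3.23 and 4.38 CPM in Sin3Bsg1. It was called in sgCtrL alone (-0.66, adjusted p = 0.0247, against -0.10, adjusted p = 0.749 in Sin3Bsg1), and that call was lost in 4 of 12 fits without 1 library (adjusted p from 0.0594 to 0.0876) and in the fit on the 6 libraries compared (adjusted p = 0.0531). Mmp12, the macrophage elastase, was the one MMP called higher, and only at low counts: 1, 1 and 2 counts in sgCtrL without IFNγ and 12, 5 and 11 with it. The ratio of the summed counts, scaled by library size, was 6.23 (95% exact interval 2.18 to 24.4, counting error only), against 3.17 (1.31 to 8.77) in Sin3Bsg1, and the sgCtrL call was lost in 4 of 12 fits without 1 library (adjusted p from 0.0577 to 0.0899). DESeq2 did not call Mmp12 in sgCtrL. Its exons overlap those of Mmp1b on the other strand.

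Among the ADAMs, IFNγ raised 2 and lowered 1 of 12 in sgCtrL, and raised 3 and lowered 1 in Sin3Bsg1. Of all genes tested 30.2% and 28.4% were called, a share near that of the ADAMs. Adam9 rose from 336, 327 and 334 to 447, 437 and 461 CPM in sgCtrL and from 311, 324 and 315 to 440.4, 441 and 433 CPM in Sin3Bsg1 (log2 fold changes 0.43 and 0.47, adjusted p = 4.41e-07 and 1.56e-07). Adam12 fell to 0.795, 0.981 and 1.31 CPM in sgCtrL and 0.501, 0.726 and 0.815 CPM in Sin3Bsg1, log2 fold changes of -1.66 and -1.54 (adjusted p = 2.25e-04 and 7.52e-04). Adam10 was slightly higher in both, from 263, 268 and 273 to 313, 286 and 299.6 CPM in sgCtrL (log2 fold change 0.16, adjusted p = 0.0120) and from 254, 255 and 266 to 299.8, 289 and 296 CPM in Sin3Bsg1 (log2 fold change 0.19, adjusted p = 0.00348), the first call being lost without replicate 1 of sgCtrL without IFNγ (adjusted p = 0.0540) and with upper-quartile scaling (adjusted p = 0.0580). Under that scaling the value in Sin3Bsg1 was 0.12. Adam17 was called in neither (-0.06 and -0.06). Adam33, an ADAM of airway smooth muscle and mesenchyme, was higher in Sin3Bsg1 (1.6, 1.56 and 1.72 to 2.96, 2.3 and 3.35 CPM, log2 fold change 0.82, adjusted p = 0.0177) and not called in sgCtrL (1.78, 2.09 and 1.71 to 1.54, 2.49 and 2.84 CPM, log2 fold change 0.30, adjusted p = 0.393). The Adam33 call was lost without replicate 1 or 3 of Sin3Bsg1 with IFNγ and without replicate 1 or 2 of Sin3Bsg1 without IFNγ (adjusted p from 0.0552 to 0.0932).

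The ADAMTS genes moved both ways with IFNγ, 3 of 10 higher and 6 of 10 lower in each genotype. Called in either direction were 30.2% of all genes tested in sgCtrL and 28.4% in Sin3Bsg1. Adamts1 rose from 96.7, 98.8 and 98.7 to 219, 222 and 219.8 CPM in sgCtrL and from 87.7, 85.9 and 85.1 to 219, 209.8 and 205 CPM in Sin3Bsg1 (log2 fold changes 1.17 and 1.29, SE 0.04 in each, adjusted p = 2.53e-12 and 6.04e-13). Adamts6, a microfibril-associated member, went from 1.24, 1.17 and 0.962 to 2.63, 3.7 and 3.11 CPM in sgCtrL and from 0.647, 0.435 and 0.902 to 4.09, 3.47 and 4.51 CPM in Sin3Bsg1 (log2 fold changes 1.49 and 2.59, adjusted p = 2.71e-04 and 1.05e-06). Adamts5 was the third to rise (log2 fold changes 0.78 and 1.06, adjusted p = 2.74e-04 and 7.58e-05), and its Sin3Bsg1 libraries with IFNγ remained below the sgCtrL libraries without it. Adamts4, Adamts9, Adamts10, Adamts12, Adamts15 and Adamts17 were lower in both genotypes. Adamts15 changed by -1.06 and -0.97, Adamts9 by -0.81 and -0.60, Adamts12 by -0.84 and -1.30, and Adamts4 by -0.62 and -0.98 on the log2 scale in sgCtrL and Sin3Bsg1, in that order. Adamts17 was low throughout, with 1.45, 1.71 and 1.23 CPM falling to 0.248, 0.491 and 0.270 CPM in sgCtrL (log2 fold change -2.08, adjusted p = 0.00592) and 0.495, 0.826 and 0.859 CPM to 0.292, 0.282 and 0 CPM in Sin3Bsg1 (log2 fold change -1.87, adjusted p = 0.0248), and the second call, with 14 against 52 summed counts (ratio 0.271, 95% exact interval 0.139 to 0.497), was lost in 3 of 12 fits without 1 library (adjusted p from 0.0587 to 0.0811). Of the ADAMTS-like genes Adamtsl3 and Adamtsl4 were lower in both genotypes (Adamtsl3 -0.77 and -1.06, Adamtsl4 -0.42 and -0.40), and Adamtsl5 was called in neither.

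The TIMPs split. Timp1 rose from 24.4, 28.4 and 27.7 to 42.1, 44.1 and 38.5 CPM in sgCtrL (log2 fold change 0.63, SE 0.10, adjusted p = 2.37e-04) and from 29.98, 28.7 and 27.1 to 32.1, 43.7 and 43.6 CPM in Sin3Bsg1 (log2 fold change 0.48, SE 0.10, adjusted p = 0.00207). Timp3 rose in both as well, with log2 fold changes of 0.57 and 0.71 (adjusted p = 3.66e-08 and 2.07e-09), and no library without IFNγ reached the lowest one with it. Timp2 fell, from 691, 669 and 703 to 646, 559 and 514 CPM in sgCtrL and from 664, 653 and 613 to 507, 496 and 486 CPM in Sin3Bsg1 (log2 fold changes -0.26 and -0.37, adjusted p = 0.00579 and 3.59e-04).

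Whether the IFNγ effect on a member depended on the genotype was tested by the interaction. No member passed it in edgeR or in DESeq2, where 0.114% of all genes tested were called in edgeR (0.0805% higher and 0.0335% lower). 5 of 39 members had an unadjusted p under 0.05, namely Adamts1, Adamts6, Adamts9, Mmp13 and Timp3. The largest of these by size was Adamts6, whose IFNγ effect was 1.11 log2 units higher in Sin3Bsg1 (SE 0.36, adjusted p = 0.673 in edgeR). For Mmp13 the difference was -0.16 (SE 0.06, adjusted p = 0.724) and for Adamts1 0.12 (SE 0.06, adjusted p = 0.912). A p above the threshold does not show that the effects were equal.

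The genotype effect of some members differed between the experiments. A joint fit of all 16 libraries compared the effect in the untreated experiment with that in the IFNγ experiment without IFNγ, and 10 of 40 tested members were called, 3 with a higher and 7 with a lower value in the untreated experiment (6.71% of all genes tested, 3.62% higher and 3.09% lower). Mmp13 showed the difference with the lowest adjusted p. Its log2 fold change was -0.92 in the untreated experiment and -0.22 without IFNγ, a difference of -0.70 (SE 0.06, adjusted p = 4.78e-07). For Adam8, not called without IFNγ, the difference was -1.13 (SE 0.21, adjusted p = 0.00208), and Adamtsl3 differed by -0.73 (SE 0.12, adjusted p = 6.49e-04). Adamts5 went the other way, its fall being larger in the IFNγ experiment by 1.03 (SE 0.22, adjusted p = 0.00603). For Mmp3 the difference was -0.45 (SE 0.23, adjusted p = 0.313) and for Mmp11 0.05 (SE 0.12, adjusted p = 0.881), neither past the threshold. The calls of Mmp13, Adam8, Adamtsl3, Adamts5 and Adamts15 held in each fit without 1 library. The number of members called fell to 5 without replicate 1 of untreated sgCtrL and to 6 without replicate 1 of untreated Sin3Bsg1. The experiments differ in the control level of several of these genes, as given above, and come from separate tables, and the part of either in the difference was not tested.

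**Figure D5:**
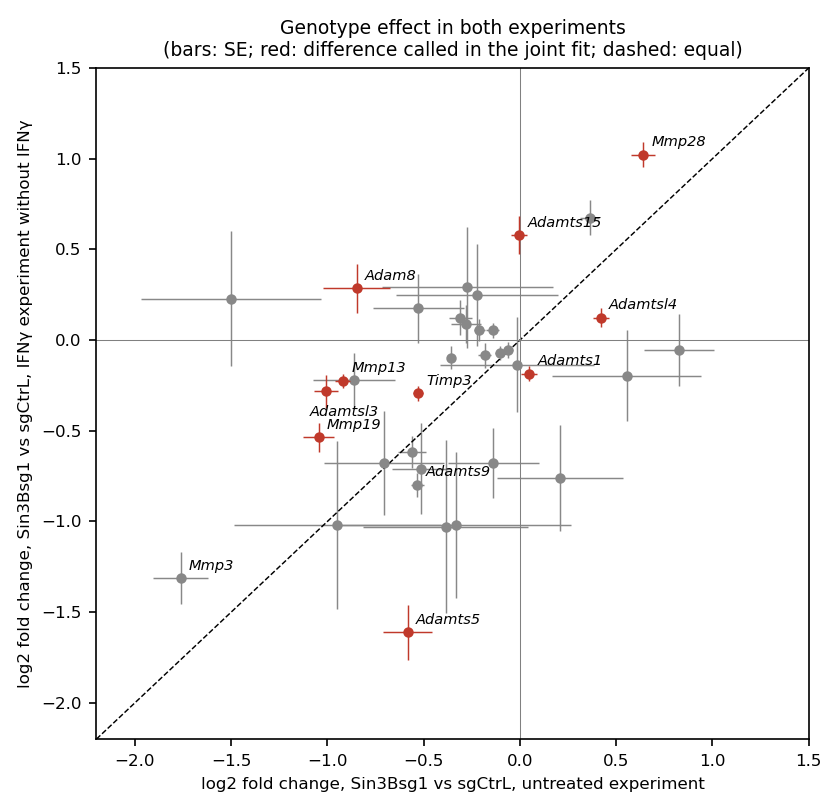
Log2 fold change of Sin3Bsg1 against sgCtrL in the untreated experiment (horizontal axis) against that between the libraries without IFNγ (vertical axis) for the 37 members tested in both, with bars for the SE, red where the joint fit called the difference between the experiments, and a dashed line of equal effect. Mmp3 lies low on both axes, Adamts5 lies below the line, and Mmp13, Adamtsl3, Mmp19 and Adam8 lie above it.

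Genes that activate, assist or regulate the family were read from 6 lists with 47 genes. In the untreated experiment 6 of 34 tested were higher and 13 lower in Sin3Bsg1, without IFNγ 4 and 4 of 36, and with IFNγ 6 and 7 of 36, beside the shares of all genes given above. The proprotein convertases, which cut the propeptides of MMP11, MMP14, MMP28 and the ADAMs, included a member of either direction. Pcsk6 was higher in Sin3Bsg1 in each comparison (log2 fold changes 0.61, 0.63 and 0.63), and Pcsk5 was lower in each (-1.01, -2.11 and -2.77). Furin was lower by a small amount in the untreated experiment (log2 fold change -0.18, adjusted p = 4.61e-04). In plasminogen activation, Plau, the urokinase that starts the plasmin cascade upstream of several MMPs, was lower in untreated Sin3Bsg1 (log2 fold change -0.47, adjusted p = 1.36e-04) and higher without IFNγ (log2 fold change 0.62, adjusted p = 0.00231). Of the partners of ADAM10 and ADAM17, the tetraspanin Tspan15 was higher in untreated Sin3Bsg1 (log2 fold change 1.40, adjusted p = 1.53e-07) and the pseudoprotease Rhbdf1 lower (log2 fold change -0.26, adjusted p = 4.31e-05). Tspan15 was also called higher in Sin3Bsg1 with IFNγ and was not called without it. Rhbdf1 was called between genotypes in neither. A2m, a protease inhibitor of blood plasma, was lower in Sin3Bsg1 in the IFNγ experiment (log2 fold changes -1.28 and -1.19, adjusted p = 0.00814 and 0.00640).

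Among the 12 AP-1 and Ets factors, all tested, 2 were higher and 6 lower in untreated Sin3Bsg1, 1 higher and 2 lower without IFNγ and likewise with IFNγ, beside 30.7%, 17.2% and 16.5% of all genes tested. Fosl1, an AP-1 subunit of invasive tumor cells, had 67.5 and 64.3 CPM in untreated sgCtrL and 37 and 37.5 CPM in Sin3Bsg1 (log2 fold change -0.82, SE 0.05, adjusted p = 4.59e-09). In the IFNγ experiment it was not called between genotypes (-0.11, adjusted p = 0.349 without IFNγ). With IFNγ, Fosl1 had 94.3, 81.5 and 76.2 CPM in sgCtrL and 69.1, 73.8 and 74.4 CPM in Sin3Bsg1. The groups did not overlap there, and the unadjusted p was under 0.05 in edgeR while the adjusted p was not. Fosl2 and Fosb were also lower in the untreated experiment (-0.46, adjusted p = 1.75e-07 and -0.85, adjusted p = 0.0220). Jun was higher in Sin3Bsg1 in all 3 comparisons (0.36, 0.58 and 0.67 on the log2 scale). IFNγ raised 2 and lowered 2 of the 12 factors in sgCtrL, beside 30.2% of all genes tested called. In Sin3Bsg1 it raised 3 and lowered 4, beside 28.4%. Jun rose with IFNγ in sgCtrL and in Sin3Bsg1 (log2 fold changes 1.39 and 1.48, adjusted p = 4.03e-10 and 5.97e-11), and so did Fosl1 (0.43 and 0.33). Ets1 rose in Sin3Bsg1 alone. Ets2 and Etv4 were lower in sgCtrL, and Elk3, Etv4, Etv5 and Junb were lower in Sin3Bsg1. Of the 4 tested members with the AP-1 motif in the promoter, Mmp3, Mmp10 and Mmp13 fell in both genotypes, and Mmp12 was higher in sgCtrL (log2 fold change 2.57, adjusted p = 0.0209) and not called in Sin3Bsg1 (log2 fold change 1.60, adjusted p = 0.114). These are levels of transcripts, and neither the proteins nor their activity were measured.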

How the data were processed

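RNA of 16 libraries of KPC1199 cells was sequenced, and 2 tables of gene counts were deposited, 1 for each experiment. The values are expected counts as deposited, of which a part are not whole numbers, and no depth normalization had been applied. According to the study's methods the authors aligned reads with HISAT2 to mm9 and counted uniquely mapped reads with featureCounts, while the submitters' processing notes name fastp, HISAT2, StringTie, DESeq2 and mm39. Versions, annotation release and strand setting are not given in the sources used here. Control columns named lacZ were taken as the sgCtrL samples, the labels having no other control guide. 6 columns of the authors' group means were not used.

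Counts were rounded and tested with edgeR 4.0.16 (R 4.3.3): filterByExpr, TMM scaling, and the two-sided quasi-likelihood test on group means, with Benjamini-Hochberg adjustment over all genes tested and a threshold of 0.05. All p-values in the text come from this test unless DESeq2 is named. Each experiment had a fit of its own (4 and 12 libraries), and all 16 libraries entered a joint fit for the difference between experiments. SE was taken as the absolute log2 fold change over the root of the test's F. Intervals of ratios of summed counts are exact 95% binomial ones and cover counting error only. The tests were also run on simulated counts with known changes. That setting had no small changes and no outlying library, so it does not bear on the smallest calls above. Members with an absolute log2 fold change of at least 0.58 in a called genotype or IFNγ comparison and a mean of at least 1 CPM in a group, and the tested TIMPs, Mmp14, Adam10 and Adam17, are given by library in the comparisons described, the untested Mmp2, Mmp9 and Timp4 by their highest count, and other members named with values (Mmp12, Mmp17, Adam9, Adamtsl4, for example) were chosen after their values were seen. The members, gene lists and tests were chosen with earlier results of these data known, and the search for TATAAA was added after the promoters had been seen. No motif of the proteins was searched, as protein sequences were not used here. Alternatives were DESeq2 1.42.0, limma-voom 3.58.1, other scalings and filters, fits on fewer libraries, the replicate number as a block, and leaving out each library in turn. Replicate numbers are shared between groups, and the correlation of the deviations of same-numbered libraries ran from -0.029 to 0.119 over 18 pairs in the IFNγ experiment and was 0.013 in the untreated experiment, so they were not treated as pairs.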

Additional observations from a re-analysis of the deposited data

Results flagged for a closer look

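The genotype effect (log2 fold change of Sin3Bsg1 against sgCtrL) of 10 members differed between the untreated experiment and the libraries without IFNγ in the joint edgeR fit. Each value is the untreated effect minus the other. It was -0.70 (SE 0.06, adjusted p = 4.78e-07) for Mmp13, -0.51 (SE 0.13, adjusted p = 0.0193) for Mmp19 and -0.38 (SE 0.10, adjusted p = 0.0216) for Mmp28. Mmp28 was higher in Sin3Bsg1 in both experiments, and by more without IFNγ. For Adam8, lower in Sin3Bsg1 in the untreated experiment and not called without IFNγ, the difference was -1.13 (SE 0.21, adjusted p = 0.00208). Among the ADAMTS genes it was -0.58 (SE 0.12, adjusted p = 0.00406) for Adamts15, 1.03 (SE 0.22, adjusted p = 0.00603) for Adamts5 and 0.23 (SE 0.06, adjusted p = 0.0345) for Adamts1. Adamtsl3 differed by -0.73 (SE 0.12, adjusted p = 6.49e-04), Adamtsl4 by 0.30 (SE 0.08, adjusted p = 0.0229) and Timp3 by -0.24 (SE 0.06, adjusted p = 0.0275).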

How the results depend on the processing

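No called value of a member changed direction under any alternative. The number of members called for the difference between the experiments was 10, and 18 when the 10 libraries without IFNγ were fitted alone. Leaving out 1 library gave 5 to 10, with 5 without replicate 1 of untreated sgCtrL and 6 without replicate 1 of untreated Sin3Bsg1. Calls of Adamts1, Adamtsl4, Mmp19, Mmp28 and Timp3 were the ones lost. Without 1 library the other member counts ran from 19 to 22 (untreated genotype), 11 to 14 (genotype without IFNγ), 12 to 16 (with IFNγ), 23 to 26 (IFNγ in sgCtrL) and 23 to 27 (IFNγ in Sin3Bsg1). Of values not called, the genotype effect with IFNγ without 1 library ran from -0.051 to 0.024 for Adam10 and from -0.14 to 0.065 for Timp1. With the replicate block the members called were 23, 12, 15, 26 and 25 in these comparisons, 0 for the interaction and 8 for the experiments, the calls of Adamtsl3 without IFNγ and of Adamtsl4 and Timp3 between experiments being lost. Over all genes, the fits on 6 libraries called 3996 in place of 2568 without IFNγ and 1500 in place of 2464 with IFNγ. For the experiments 1048 genes became 2076 with 10 libraries and 605 to 969 without 1 library, and for the interaction 17 became 32 in DESeq2, 110 without a filter and 1 to 33 without 1 library. The cause was not tested. Low counts kept 44 members out of the main fits, and Mmp12, Mmp17 and Adamts17 rested on low counts.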
